A study of Mus musculus with 24 samples.

Results

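The genes described here encode the proteasome and the factors that build it, in mouse preimplantation embryos. Members were all protein-coding genes whose symbol is Psma, Psmb, Psmc, Psmd, Psme, Psmf or Psmg followed by a number. This gave 48 genes of the 55471 gene identifiers in the count files. No measured value entered this rule, but the members were chosen with earlier results of these data known. Of the 48, 47 had enough counts to be tested at the morula stage and over both stages together, and 45 at the late 2-cell stage. The exception everywhere was Psmb8, which had between 0 and 2 counts in each of the 24 libraries.

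RNA was sequenced from embryos of B6D2F1 mice, a cross of the inbred strains C57BL/6 and DBA/2, at the late 2-cell stage (labelled L2C) and at the morula stage (Mor). There were 6 groups of 4 libraries: wild type (WT), Ttf1 knockout (Ttf1_KO) and Zfp622 knockout (Zfp622_KO) at each stage. The titles of the wild-type libraries read NC, which is not explained. Each library was made from polyadenylated RNA of 10 pooled embryos by oligo-dT priming and template switching. Ttf1 encodes a termination factor of RNA polymerase I, and Zfp622 a zinc finger protein that helps the large ribosomal subunit mature. For the knockouts, Cas9 protein and 3 guide RNAs against the gene were injected into the cytoplasm of zygotes, and the embryos were cultured. Each pool can therefore hold embryos and cells with different edits and with unedited alleles. The labels do not say whether wild-type zygotes were also injected. They name the 4 libraries of a group replicates without saying whether the pools came from separate collections, so p-values measure the spread between these libraries.

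The proteasome degrades proteins that carry ubiquitin chains. Its 20S core is a barrel of stacked rings: alpha subunits (Psma genes) form the outer rings and the gate, and beta subunits (Psmb genes) form the inner rings, in which Psmb5, Psmb6 and Psmb7 carry the catalytic sites. The 19S regulatory particle caps the barrel. Its ATPase ring (Psmc genes) unfolds substrates, and its other subunits (most Psmd genes) bind ubiquitin, remove it and hold the cap together. Dedicated chaperones assemble the core (Psmg genes) and the base of the cap (Psmd5, Psmd9, Psmd10), and activators (Psme genes) can replace the cap. In early embryos the ubiquitin-proteasome system is known for removing proteins stored in the egg as the embryo's own genes are switched on.

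Total counts ran from 10538723 to 13528954 in the L2C libraries and from 12690369 to 17807596 in the morula libraries. Levels below are CPM (counts relative to the library's total, on the usual scale) scaled by the trimmed mean of M-values (TMM) over all 24 libraries. The targeted genes were lower in their own knockouts. Ttf1 was at 74 ± 4.27 CPM in wild type and 27.1 ± 3.82 in Ttf1_KO at L2C, and at 52.9 ± 1.5 and 31 ± 1.66 at morula (mean ± SD, n = 4). Zfp622 was at 161 ± 7.39 and 60.4 ± 18.8 CPM at L2C, and at 64 ± 6.22 and 18.4 ± 7.49 at morula. Transcript remained in every knockout library, and edited transcripts can still be counted. Of 12 marker genes of the 2-cell embryo, 12 were lower in wild-type morula than in wild-type L2C, and of 13 morula markers 12 were higher. By the same edgeR test, which is given below, 46.1% of all genes tested were lower and 37.9% higher. All Ttf1_KO libraries carry sequencing lane 1 in the file headers and all other libraries lane 2, so lane and Ttf1 knockout cannot be told apart at either stage. The headers of 3 wild-type libraries (L2C library 4, morula libraries 3 and 4) hold an additional index number.

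From the late 2-cell stage to the morula, transcripts of the whole 26S proteasome rose in wild-type embryos. Of 47 members tested, 41 were higher in morula (edgeR quasi-likelihood test, Benjamini-Hochberg adjusted p of at most 0.05), where 37.9% of all genes tested were. The median log2 fold change was 2.31 for the members and -0.28 for all genes. Among genes with a mean of at least 50 CPM over all 24 libraries, 55.6% were higher and 35.7% lower, with a median of 0.49. That limit was set after the data were seen. All 14 subunits of the 20S core and all 17 subunits of the 19S particle were among the 41. Another 5 members were lower, where 46.1% of all genes were, and Psma8 did not pass the test. The members together took 0.667% ± 0.0328 of all counts in wild-type L2C and 1.95% ± 0.0513 in wild-type morula. In bulk samples, fewer cells of a type and less RNA per cell cannot be told apart, and these values are relative to all other transcripts in the same library. The scale depends on the normalization: with total counts alone, all genes shifted by -0.54 on the log2 scale and the members' median was 1.73, with 40 members higher and 5 lower, and the share of higher genes among all genes called went from 45.1% to 34.9%. With DESeq2 the shift was -0.12 and the counts of members stayed at 41 and 5.

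Within the 20S core the rise differed from subunit to subunit. Psma7, an outer-ring subunit, had 50.4, 51, 35.2 and 43 CPM in the 4 wild-type L2C libraries and 1016, 1067, 1157 and 1072 in the 4 morula libraries, 23.9-fold higher (log2 fold change 4.58, SE 0.14, adjusted p = 3.44e-21). Psmb3, an inner-ring subunit without a catalytic site, had 55.2, 45.7, 27.9 and 38.7 CPM at L2C and 786, 786, 871 and 770.1 at morula (log2 fold change 4.26, SE 0.22, adjusted p = 1.02e-13). Per length these were the 2 lowest core subunits at L2C, and at morula 5 core subunits were lower than either. Psmb3 has 5 pseudogene copies that share stretches of at least 75 bases with it, and reads that fit several places were not counted. Psma5, also of the outer ring, had 71.5, 83.2, 72.1 and 63.6 CPM at L2C and 810.0, 799, 923 and 844 at morula (log2 fold change 3.54, SE 0.11, adjusted p = 1.6e-22). At the other end, Psmb1, an inner-ring subunit without a proteolytic site, rose by 1.13 and Psma3 by 1.44 on the log2 scale.

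The 3 catalytic subunits rose by different amounts. Psmb5, the chymotrypsin-like subunit, had 125, 114, 115 and 110.2 CPM at L2C and 432, 435, 474 and 421 at morula (log2 fold change 1.92, SE 0.10, adjusted p = 1.85e-17). Psmb6, the caspase-like subunit, had 101, 98.2, 92.1 and 82.7 CPM at L2C and 760.4, 792, 869.6 and 752 at morula (log2 fold change 3.08, SE 0.10, adjusted p = 5.82e-22). Psmb7, the trypsin-like subunit, had 107.50, 102.56, 93.5 and 103.20 CPM at L2C and 365, 359, 399 and 383 at morula (log2 fold change 1.89, SE 0.09, adjusted p = 2.78e-18). In each of them every morula library was above every L2C library. Reads of Psmb5 cannot be told apart from those of the microRNA gene Mir686, which covers 12.1% of its exons on the same strand, and 11.8% of the exons of Psmb7 overlap another gene, Nek6.

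In the 19S particle the 6 ATPases rose together, with log2 fold changes from 2.80 (Psmc2) to 3.81 (Psmc6) and a median of 3.31. The 11 non-ATPase subunits had a median of 2.26 and ran from 1.45 (Psmd11) to 3.27 (Psmd8). Psmc6 had 59.4, 74.6, 52.6 and 57 CPM at L2C and 874, 851, 868 and 823 at morula. Psmd2, a large scaffold of the base and a docking site for ubiquitin receptors, had 61.7, 66, 53.9 and 52.4 CPM at L2C and 478, 438, 512 and 492 at morula (log2 fold change 3.03, SE 0.09, adjusted p = 8.51e-23). Psmd4, a ubiquitin receptor, rose by 1.85, and Psmd14, the deubiquitinase that cuts ubiquitin chains off the substrate, by 1.89 on the log2 scale. Psmd7, the partner of Psmd14 in the lid, was already at 271 to 319 CPM at L2C and rose by 1.49.

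The subunits that replace the standard catalytic ones in particular tissues stayed low. Psmb10, one of the 3 immunoproteasome subunits of immune cells, had 21.3, 19.2, 14.4 and 13.8 CPM at L2C and 21.8, 32.5, 31.5 and 24.7 at morula (log2 fold change 0.68, SE 0.20, adjusted p = 0.0024). Psmb9, the second, had 0.573, 0.473, 0.448 and 0.396 CPM at L2C and 5.52, 4.88, 4.19 and 3.82 at morula (log2 fold change 2.93, SE 0.46, adjusted p = 1.55e-06). Psmb8, the third, had no count in any wild-type morula library and was not tested. Psmb11, the subunit of the thymus, was detected at 2.15, 2.37, 2.91 and 2.51 CPM at L2C and at 1.59, 1.41, 1.42 and 0.687 at morula (log2 fold change -0.89, SE 0.34, adjusted p = 0.0187). Its exons share stretches of at least 75 bases with many other genes, 96 when each transcript type of a gene is counted apart. Psma8, the alpha subunit of male germ cells, was at 0.132 to 1.00 CPM at L2C and 0.305 to 1.24 at morula, and the groups overlapped (adjusted p = 0.439). Of the 18 blood and immune markers, 8 were at 0 in all wild-type morula libraries, among them Ptprc and Tyrobp.

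The chaperones of the core rose in all 4 cases, and those of the base did not move as one. Psmg2, which pairs with Psmg1 to start the alpha ring, had 9.31, 9.55, 8.5 and 6.14 CPM at L2C and 243, 226, 257 and 233 at morula, 28.2-fold higher (log2 fold change 4.82, SE 0.14, adjusted p = 1.11e-22). Its partner Psmg1 had 18, 22.2, 16.6 and 16.8 CPM at L2C and 107.56, 81.6, 115 and 102 at morula (log2 fold change 2.45, SE 0.11, adjusted p = 1.22e-18). The second pair, Psmg3 and Psmg4, rose by 2.17 and 2.62 on the log2 scale. Among the base chaperones, Psmd10 rose by 2.38 and Psmd9 by 1.28. Psmd5 fell, from 211, 223, 189 and 204 CPM at L2C to 171, 163, 151 and 151 at morula (log2 fold change -0.38, SE 0.09, adjusted p = 0.00022), without overlap of the groups. Psmd5 shares stretches of at least 75 bases with many other genes, 84 when each transcript type of a gene is counted apart.

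Activators of the core went the other way from its subunits in 3 of 4 cases. Psme4, which encodes the nuclear activator PA200, had 454, 474, 522 and 503 CPM at L2C and 55.5, 62.9, 59.6 and 61.3 at morula (log2 fold change -3.03, SE 0.09, adjusted p = 2.16e-22), the strongest fall among the members. Psme3, which encodes another nuclear activator, had 111, 122, 105.84 and 120.3 CPM at L2C and 55.7, 69.5, 73.6 and 67.9 at morula (log2 fold change -0.78, SE 0.09, adjusted p = 7.14e-09). Psme1 and Psme2 encode the 2 partners of a single ring and lie 5.91 kb apart on chromosome 14, and they moved in opposite directions. Psme2 had 26.6, 28.1, 28.1 and 25.8 CPM at L2C and 9.29, 11.5, 8.95 and 10.2 at morula (log2 fold change -1.43, SE 0.15, adjusted p = 6.5e-10). Psme1 had 8.88, 12, 6.64 and 6.01 CPM at L2C and 44.7, 50.3, 60.5 and 54.9 at morula (log2 fold change 2.63, SE 0.21, adjusted p = 3.51e-12). Psme2 shares stretches of at least 75 bases with Psme2b, so its counts are uncertain. The inhibitor Psmf1 had 12, 13, 13.6 and 11.7 CPM at L2C and 68.4, 65.6, 65.3 and 58.1 at morula, and rose (log2 fold change 2.34).

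**Figure D1:**
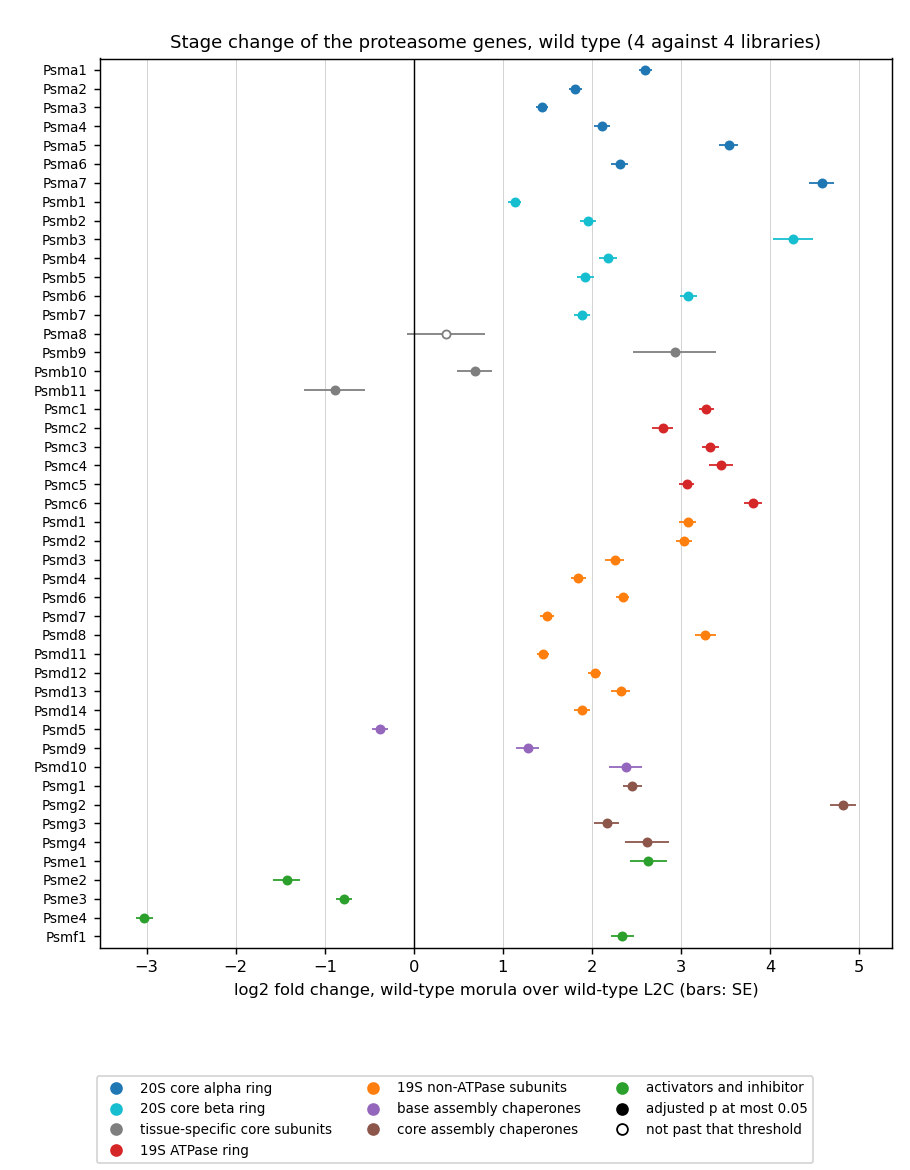
Log2 fold change of each of the 47 members tested, wild-type morula over wild-type L2C (x axis, log2 scale; points with bars of 1 SE, from edgeR; 4 libraries in each group), ordered by role on the y axis; filled points passed the adjusted p of 0.05. The core and 19S subunits all lie to the right of 0, from 1.13 (Psmb1) to 4.58 (Psma7), while Psme4, Psme2, Psme3, Psmd5 and Psmb11 lie to the left.

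Levels can be compared between genes only per transcript length, as TPM (counts divided by the exon length in the files, then scaled to the same sum in each library). Since core subunits are present in equal numbers in the finished particle, their transcripts were compared with each other. In wild-type L2C the 14 core subunits ran from 41.1 ± 7.27 TPM (Psma7) to 616 ± 82.7 TPM (Psma6), a ratio of 15 (mean ± SD, n = 4). In wild-type morula they ran from 207 ± 5.35 (Psmb7) to 2051 ± 18.2 TPM (Psma6), a ratio of 9.89. The SD of their log2 TPM within a library was 1.05 to 1.24 in the L2C libraries and 0.844 to 0.854 in the morula libraries, so the subunits lay closer together at morula in all 4 libraries. Psma6 and Psmb2 were the most abundant members at both stages, and at L2C their libraries overlapped. Exon length here is the union of all annotated exons, which understates the level of genes with long rare exons.

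Summed over genes, the 20S core went from 3270.0 ± 273 TPM in wild-type L2C to 11220 ± 317 in morula, and the 19S subunits from 1942 ± 155 to 7225 ± 191 TPM. The ratio of the sums, morula over L2C, was 6.43 for the ATPase ring, 2.78 for the non-ATPase subunits, 3.79 for the alpha ring and 3.08 for the beta ring. It was 6.27 for the core chaperones and 0.987 for the base chaperones. For the activators and the inhibitor it was 0.393. In L2C, Psme4 alone stood at 163 ± 8.82 TPM, above the 19S scaffold Psmd2 at 40.7 ± 5.23. In morula the order was the other way, with 13.5 ± 0.983 TPM for Psme4 and 224 ± 8.42 for Psmd2.

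Because so many members moved together, their promoters were searched for letters that known regulators read. RefSeq promoter windows (GRCm38.p6, 250 bases before to 50 after the start) were available for 40 of the 48 members. The antioxidant response element, read by Nfe2l1, a known activator of proteasome genes, was searched as TGACNNNGC on both strands. It occurred in the windows of 6 of the 40 members (15%: Psmb5, Psmb6, Psmc6, Psmd9, Psmd12 and Psme4), and in 12.4% of all 32851 windows. CCAAT, read by the Nfy factors, occurred on either strand for 14 of 40 members (35%) and in 37.4% of all windows. Neither share lay far from that of all windows. The windows of 4 members are shown, because the motif and the behaviour did not go together in them. Psmb6 (chr11:70525107-70525406, plus strand) holds the element and rose with stage, whereas Psme4 (chr11:30771525-30771824, plus strand) holds it and fell. Psmd12 (chr11:107479278-107479577, plus strand) holds it and Psmd2 (chr16:20651402-20651701, plus strand) does not, and both rose with stage and were lower in both knockouts at morula. Capitals mark the element, which lies on the minus strand in Psme4 and Psmd12 and so reads in reverse complement.
Psmb6: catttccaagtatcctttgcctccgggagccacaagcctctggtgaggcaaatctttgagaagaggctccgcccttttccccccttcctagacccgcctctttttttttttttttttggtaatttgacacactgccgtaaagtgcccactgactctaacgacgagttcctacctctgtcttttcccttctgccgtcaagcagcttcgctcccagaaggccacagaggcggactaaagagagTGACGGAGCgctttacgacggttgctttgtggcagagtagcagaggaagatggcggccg
Psme4: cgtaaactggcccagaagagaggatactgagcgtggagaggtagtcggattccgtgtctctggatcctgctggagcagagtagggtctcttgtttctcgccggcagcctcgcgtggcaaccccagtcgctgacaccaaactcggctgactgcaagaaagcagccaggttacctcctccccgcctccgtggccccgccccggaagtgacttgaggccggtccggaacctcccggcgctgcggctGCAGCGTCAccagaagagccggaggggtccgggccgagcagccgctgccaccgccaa
Psmd12: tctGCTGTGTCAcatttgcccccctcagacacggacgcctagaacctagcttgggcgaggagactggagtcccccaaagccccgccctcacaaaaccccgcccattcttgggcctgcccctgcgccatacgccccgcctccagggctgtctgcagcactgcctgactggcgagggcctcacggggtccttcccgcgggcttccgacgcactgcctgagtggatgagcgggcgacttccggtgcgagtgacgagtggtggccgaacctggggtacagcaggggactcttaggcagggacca
Psmd2: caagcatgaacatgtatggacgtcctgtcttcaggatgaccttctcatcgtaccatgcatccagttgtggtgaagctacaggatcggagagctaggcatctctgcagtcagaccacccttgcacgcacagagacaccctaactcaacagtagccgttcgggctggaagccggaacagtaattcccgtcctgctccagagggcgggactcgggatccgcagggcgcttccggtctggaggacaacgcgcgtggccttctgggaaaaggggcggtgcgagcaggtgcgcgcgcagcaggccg
In Ttf1_KO morulae 1 of the 6 members with the element was called lower, and 16 of the 33 tested members whose window lacks it. A match is a description of letters and not a bound site, and no match says only that the letters are absent from the window.

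In Ttf1 knockout morulae the 19S particle was lower almost throughout. Of the 47 members tested, 22 were lower than in wild type, where 17.9% of all genes tested were, and 1 was higher, where 21.3% were (edgeR, adjusted p of at most 0.05). The median log2 fold change was -0.22 for the members and 0.03 for all genes. Of the 17 subunits of the 19S particle, 15 were lower (all but Psmc6 and Psmd6), with a median of -0.32. Of the 14 core subunits 5 were lower (Psma4, Psma5, Psma7, Psmb4 and Psmb7) and Psma6 was higher, with a median of -0.11. The remaining 2 were Psmd5 and Psmg2, and no activator was called. Most members are abundant, and abundant genes were more often called lower: among genes with a mean of at least 50 CPM in the morula libraries, a limit set after the data were seen, 33.5% were lower, and 717 of 3579 higher, and 22 of the 39 such members were lower and 1 higher.

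Psmd2 (ENSMUSG00000006998, chr16:20651652-20663414, plus strand) had the largest called fall. It had 478, 438, 512 and 492 CPM in the 4 wild-type morula libraries and 333, 319, 335 and 320.2 in the 4 Ttf1 knockout libraries (log2 fold change -0.55, SE 0.07, adjusted p = 2.74e-05). Psmc3, an ATPase (ENSMUSG00000002102, chr2:91054009-91066369, plus strand), had 295, 299, 352 and 325 CPM in wild-type and 249, 209.8, 217 and 218 in Ttf1_KO libraries (log2 fold change -0.50, SE 0.08, adjusted p = 0.000171). In both genes every knockout library was below every wild-type library. Psmd14, the deubiquitinase (ENSMUSG00000026914, chr2:61711694-61800376, plus strand), had 799.9, 768, 827 and 775 CPM in wild-type and 548, 525, 596 and 609 in Ttf1_KO libraries (log2 fold change -0.47, SE 0.07, adjusted p = 8.87e-05). Its partner Psmd7 had 767, 810.0, 892 and 812 CPM in wild-type and 488, 590.0, 601 and 644 in Ttf1_KO libraries (log2 fold change -0.49, SE 0.08, adjusted p = 0.000217). The ubiquitin receptor Psmd4 was at 626 to 720.0 CPM in wild type and at 520.3 to 605 in Ttf1_KO, and fell (log2 fold change -0.25, adjusted p = 0.00741). Exons of Psmc3 overlap Slc39a13 on the other strand over 8.25% of their length, and without strand those reads cannot be told apart.

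The base chaperone Psmd5 had 171, 163, 151 and 151 CPM in wild-type morulae and 125, 99.7, 98.3 and 115 in Ttf1 knockout morulae (log2 fold change -0.53, SE 0.08, adjusted p = 9.99e-05). The other base chaperones were not called: Psmd9 had a log2 fold change of 0.06 (adjusted p = 0.753) and Psmd10 of 0.05 (adjusted p = 0.79). Of the partners Psmg1 and Psmg2, Psmg2 was called. Psmg2 had 243, 226, 257 and 233 CPM in wild-type and 209, 172, 183 and 189 in Ttf1_KO libraries (log2 fold change -0.34, SE 0.08, adjusted p = 0.00204), whereas Psmg1 had 107.56, 81.6, 115 and 102 and 118, 122, 112 and 115 CPM (log2 fold change 0.21, SE 0.09, adjusted p = 0.0551). The groups did not overlap for Psmg2 and did for Psmg1.

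Of the catalytic subunits of the core, Psmb7 was called in Ttf1 knockout morulae and the other two were not. Psmb5 had 465, 394, 382 and 431 CPM in the knockout (log2 fold change -0.07, SE 0.08, adjusted p = 0.528) and Psmb6 had 818, 725, 759 and 731 CPM (log2 fold change -0.06, SE 0.06, adjusted p = 0.489), and both overlapped wild type. Psmb7 had 334, 269, 314 and 292 CPM, all below the wild-type libraries at 359 to 399 (log2 fold change -0.31, SE 0.07, adjusted p = 0.00166). The alpha subunit Psma6, the most abundant member, was the only one higher, with 1345, 1283, 1406 and 1339.7 CPM in wild-type and 1515, 1655, 1588 and 1549 in Ttf1_KO libraries (log2 fold change 0.24, SE 0.06, adjusted p = 0.00366), a call that was lost when all 24 libraries entered the fit. Psme4 was at 55.5 to 62.9 CPM in wild type and 54.5 to 68.9 in Ttf1_KO (log2 fold change 0.11, adjusted p = 0.39), so the member with the strongest fall between stages had no call here. Psmb11 had the lowest fitted value, -1.09, at 0.0866 to 1.14 CPM, with an SE of 0.46 and no call (adjusted p = 0.0682).

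**Figure D2:**
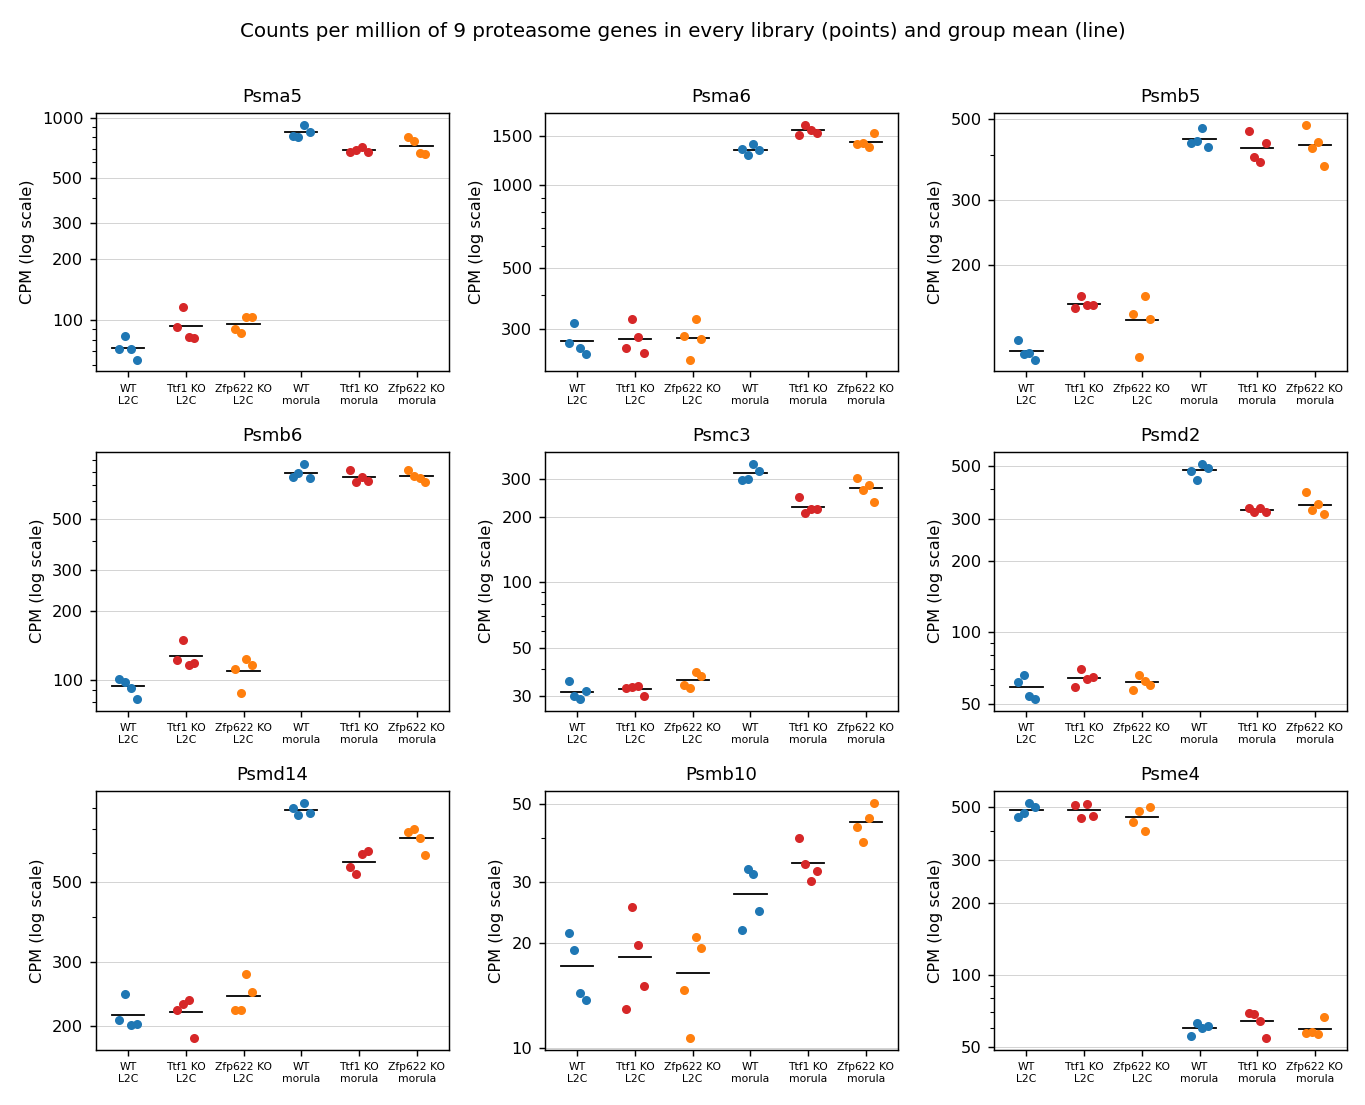
CPM (y axis, log scale) of 9 members in each of the 24 libraries; points are libraries, lines are group means, blue is wild type, red Ttf1 knockout and orange Zfp622 knockout, with L2C groups on the left and morula groups on the right. The Psmd2 points of both knockouts at morula (319 to 335 and 313 to 389 CPM) lie below all wild-type points (438 to 512), whereas Psmb5 and Psmb6 overlap wild type at morula.

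In Zfp622 knockout morulae fewer members passed the test, again mostly of the 19S particle. Of the 47 members, 14 were lower, where 13.5% of all genes tested were, and 1 was higher, where 15.6% were (edgeR, adjusted p of at most 0.05). The median log2 fold change was -0.12 for the members and 0.03 for all genes. The 14 were 11 of the 17 subunits of the 19S particle (median -0.25), 2 of the 14 core subunits (Psma4 and Psma5; median -0.08) and the activator Psme1. Among genes of at least 50 CPM, 27.3% were lower and 14.1% higher, and of the 39 such members 13 were lower and 0 higher. DESeq2 called 19 members lower and 1 higher, where it called 15.4% of all genes lower and 15.9% higher.

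Psmd2 again had the largest called fall, with 389, 326, 347 and 313 CPM in the 4 Zfp622 knockout morula libraries (log2 fold change -0.47, SE 0.07, adjusted p = 0.000185). Psmd1, the other large scaffold of the base, had 568, 584, 602 and 581 CPM in wild type and 469, 452, 460.4 and 400.2 in the knockout (log2 fold change -0.38, SE 0.07, adjusted p = 0.000785). Psmd7 had 642, 668, 625 and 633 CPM in the knockout (log2 fold change -0.34, SE 0.08, adjusted p = 0.0047) and the ATPase Psmc2 had 636, 696, 662 and 586 against 808, 789, 855 and 805 in wild type (log2 fold change -0.32, SE 0.06, adjusted p = 0.00138). For these 4 genes no knockout library reached the lowest wild-type library. Psmd14 had 687, 700.2, 659.8 and 592 CPM in the knockout (log2 fold change -0.25, SE 0.07, adjusted p = 0.0117). The activator Psme1 had 44.7, 50.3, 60.5 and 54.9 CPM in wild type and 36.1, 38.5, 40.7 and 44.3 in the knockout (log2 fold change -0.39, SE 0.11, adjusted p = 0.0157), with the highest knockout library just below the lowest wild-type one. Its partner Psme2 was at 7.09 to 10.8 CPM against 8.95 to 11.5 (log2 fold change -0.05, adjusted p = 0.847).

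The immunoproteasome subunit Psmb10 was the only member higher in Zfp622 knockout morulae. It had 21.8, 32.5, 31.5 and 24.7 CPM in wild type, 42.9, 38.9, 45.7 and 50.4 in the Zfp622 knockout (log2 fold change 0.69, SE 0.13, adjusted p = 0.000965) and 39.9, 33.7, 30.1 and 32.2 in Ttf1_KO (log2 fold change 0.30, SE 0.13, adjusted p = 0.0738). Zfp622 knockout libraries did not overlap wild type, and Ttf1 knockout libraries did. Psmb9 was at 2.43 to 4.77 CPM against 3.82 to 5.52 in wild type and was not called (adjusted p = 0.423), and Psmb8 had no count in the Zfp622 knockout morulae. Of 18 genes of antigen presentation and interferon response, 8 were tested at morula. In the Zfp622 knockout, Tap1, the peptide transporter, was higher (log2 fold change 0.99, adjusted p = 0.0151), as was B2m (0.64, adjusted p = 0.00831), while the class I heavy chains H2-D1 (-1.09, adjusted p = 5.91e-05) and H2-K1 (-0.76, adjusted p = 0.0223) were lower. Blood and immune markers summed to 14.2 to 17.7 CPM in wild-type morulae, 30.7 to 50.6 in Ttf1_KO and 36.8 to 47.9 in Zfp622_KO. Of the 4 that could be tested, 4 were higher in Ttf1_KO (median log2 fold change 1.70) and 2 in Zfp622_KO (median 1.16). Over all genes tested, 21.3% and 15.6% were higher in the same comparisons. Of the 18 markers, Hbb-bt, Fcer1g, S100a8, S100a9 and Itgam were at 0 in all morula libraries, and Ptprc in wild type and Zfp622 knockout. The part of those cells in the Psmb10 result was not tested.

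Both knockouts were compared with the same 4 wild-type libraries, so their calls are not independent. Called lower in both were 13 members: Psma4, Psma5, Psmc2, Psmc4, Psmc5, Psmd1, Psmd2, Psmd4, Psmd7, Psmd11, Psmd12, Psmd13 and Psmd14. They were 13 of the 22 called in Ttf1_KO and 13 of the 14 called in Zfp622_KO. The same overlap was not counted over all genes, so it is not known whether it is particular to the members. Among the 9 called lower only in Ttf1_KO were Psmc3, with log2 fold changes of -0.50 and -0.22 in Ttf1_KO and Zfp622_KO, and Psmd5, with -0.53 and -0.20. Compared directly, Ttf1_KO and Zfp622_KO morulae differed in 0 of 47 members by edgeR, where 0.229% of all genes did. At an unadjusted p under 0.05 there were 8 lower and 1 higher in Ttf1_KO, where 1959 of 14865 genes were under it in either direction. With DESeq2, 0.949% of all genes were lower and 1.22% higher, and 2 members were lower, Psmc3 and Psmd5. Both of these, and 5 of the 8, lie on chromosome 2 beyond the Ttf1 gene (Psma7, Psmb7, Psmc3, Psmd5 and Psmd14). The smallest adjusted p by edgeR was 0.0856, for Psmd5 (log2 fold change -0.34, SE 0.08).

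**Figure D3:**
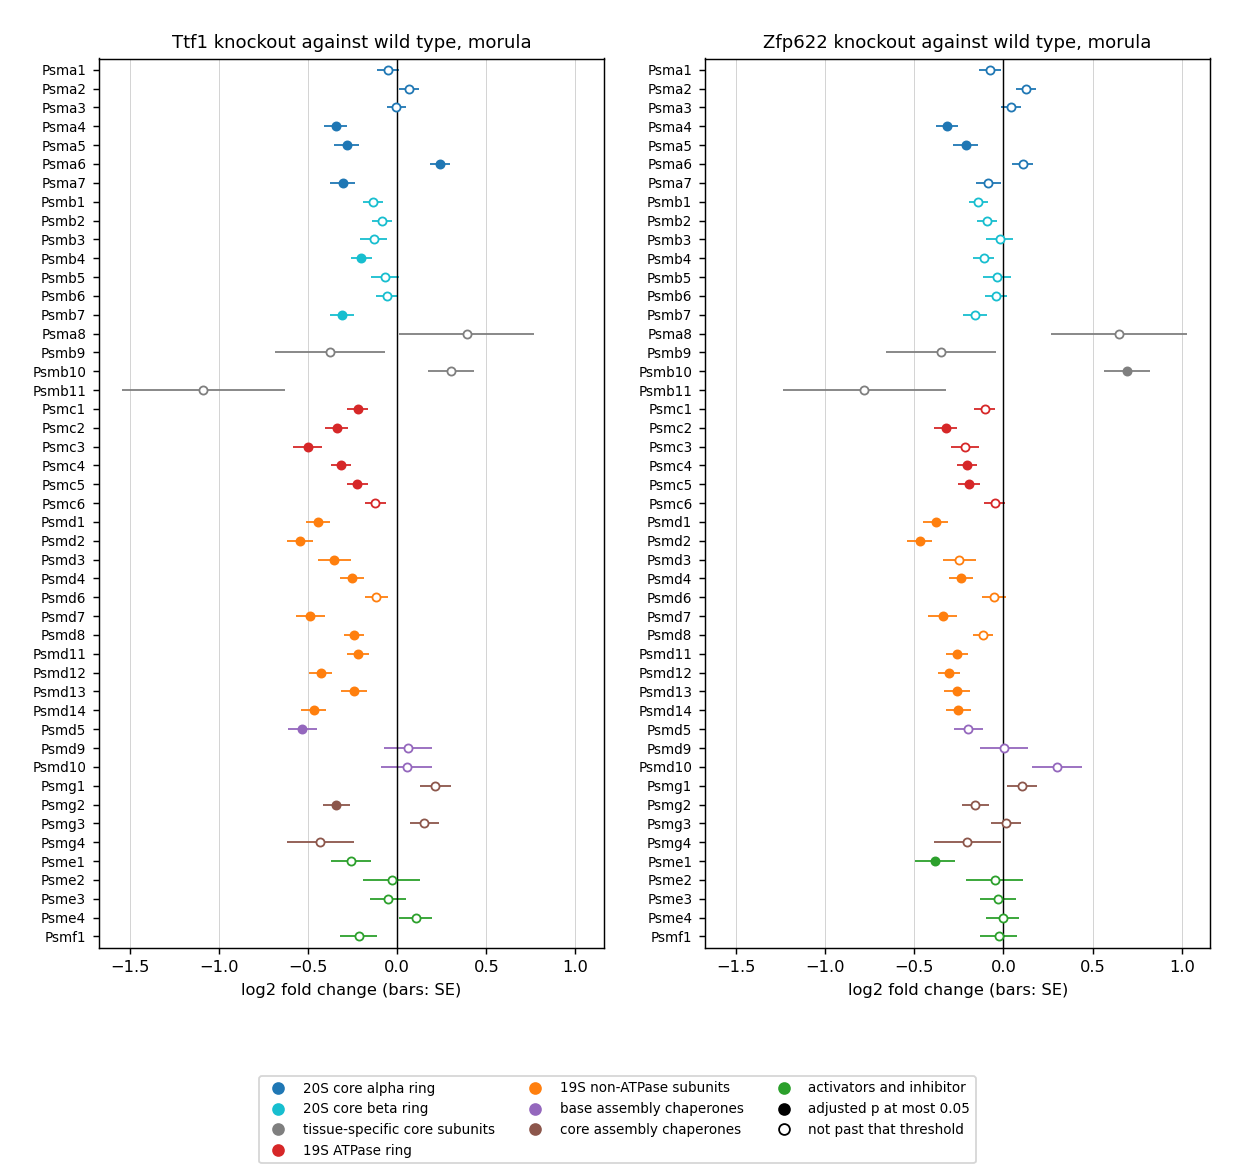
Log2 fold change of each of the 47 members tested at morula (x axis, log2 scale; points with bars of 1 SE, from edgeR) in Ttf1 knockout (left) and Zfp622 knockout (right) against the same 4 wild-type libraries, 4 knockout libraries each; filled points passed the adjusted p of 0.05. Filled points to the left of 0 are mostly 19S subunits, 15 of 17 on the left panel and 11 of 17 on the right, and filled points to the right are Psma6 in Ttf1 knockout and Psmb10 in Zfp622 knockout.

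Cap and core transcripts were also compared within each library. The ratio of summed 19S to summed 20S TPM was 0.634 to 0.654 in the wild-type morula libraries, 0.519 to 0.571 in those of Ttf1_KO and 0.556 to 0.594 in those of Zfp622_KO, and no knockout library reached the wild-type range. Summed 19S TPM was 7225 ± 191 in wild type, 5448 ± 239 in Ttf1_KO and 6005 ± 369 in Zfp622_KO (mean ± SD, n = 4). Summed core TPM was 11220 ± 317, 9984 ± 272 and 10397 ± 442. At L2C the ratio was 0.575 to 0.617 in wild type, 0.522 to 0.563 in Ttf1 knockout and 0.530 to 0.600 in Zfp622 knockout, so the Ttf1 knockout libraries were below wild type at both stages. At L2C the lower ratio of Ttf1_KO went with a higher core sum (3809 ± 317 against 3270.0 ± 273 TPM) and not with a lower 19S sum (2048 ± 170 against 1942 ± 155). These sums add genes of known members and carry no test.

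**Figure D4:**
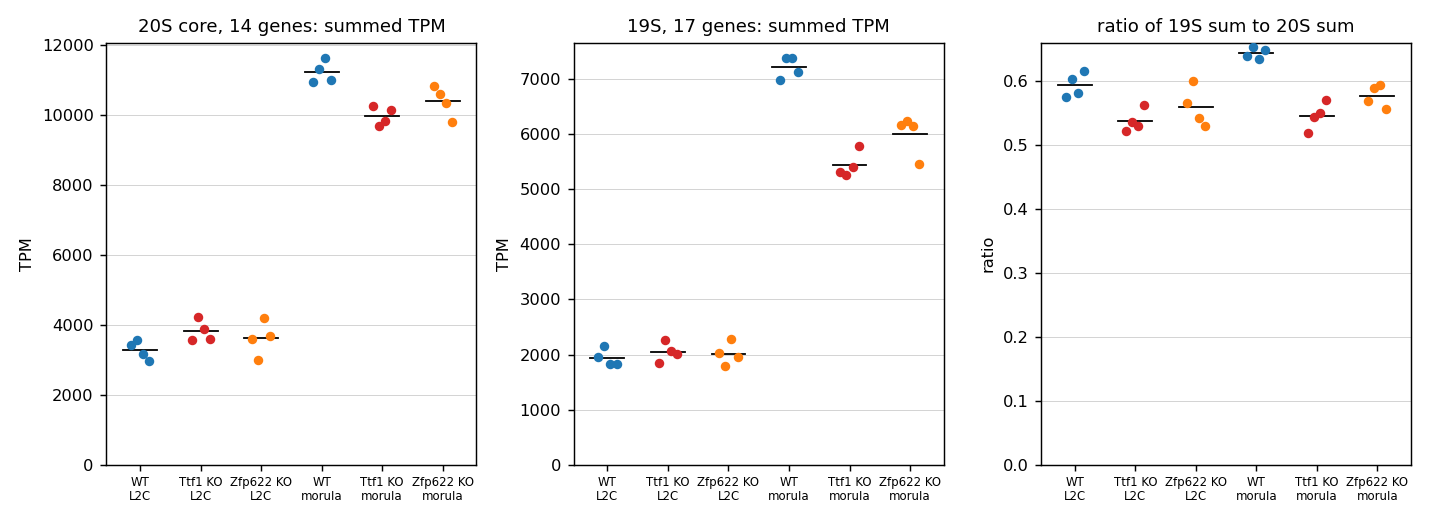
Summed TPM of the 14 core subunits (left) and the 17 subunits of the 19S particle (middle), and the ratio of the second to the first (right), in each of the 24 libraries (points; lines are group means; blue wild type, red Ttf1 knockout, orange Zfp622 knockout; y axes start at 0). Wild-type morula ratios of 0.634 to 0.654 lie above all knockout morula libraries, which reach 0.594 at most.

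At the late 2-cell stage few members were called. In Ttf1 knockout, 1 of 45 members tested was called by edgeR, where 1.54% of all genes were called in either direction. This was Psmb5 (ENSMUSG00000022193, chr14:54614119-54618022, minus strand), with 125, 114, 115 and 110.2 CPM in wild type and 152, 164, 156 and 155 in Ttf1_KO (log2 fold change 0.43, SE 0.10, adjusted p = 0.0311), without overlap. Psmb6 had 101, 98.2, 92.1 and 82.7 CPM in wild type and 122, 149, 116 and 119 in Ttf1_KO (log2 fold change 0.43, SE 0.11, adjusted p = 0.0511), also without overlap. At an unadjusted p under 0.05 there were 3 higher (Psma5, Psmb5 and Psmb6) and 0 lower, where 2676 of 16770 genes were under it in either direction. DESeq2 called Psmb5 and Psmb6 higher, where it called 2.19% of all genes higher and 2.34% lower. The Psmb5 call was lost in 7 of 17 alternatives: when wild-type library 2, 3 or 4 or Ttf1_KO library 2, 3 or 4 was left out, and in the fit without the second-index library, which at L2C is wild-type library 4.

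In Zfp622 knockout at L2C, 0 of 45 members were called by edgeR and 0 by DESeq2, where 0.0179% of all genes were called by edgeR. At an unadjusted p under 0.05, 3 were higher: Psma5, Psmb5 and Psmd9. Of all 16770 genes tested, 1079 were under it in either direction. Psma5 had 71.5, 83.2, 72.1 and 63.6 CPM in wild type and 90.6, 86.1, 103.31 and 103.04 in the knockout (log2 fold change 0.40, SE 0.11, adjusted p = 0.601). Ttf1_KO and Zfp622_KO at L2C differed in 0 of 45 members by edgeR and by DESeq2, where 0.0358% of all genes differed by edgeR. Between them 0 members were under an unadjusted p of 0.05, where 1362 of 16770 genes were. Simulated data of this size covered all 16770 genes of the L2C comparison of Ttf1_KO with wild type, not the members alone. Known changes were put into a small random set of these genes, and the shares that follow refer to that set. Recovered were 2% of genes with the smallest change simulated (under 1.5-fold), 30% of those changed 1.5-fold and 54% of those changed 2-fold. For the morula comparison of Ttf1_KO with wild type these shares were 2%, 28% and 56%. Far fewer genes were changed in that simulation than were called in the real morula data. Yet 22 of 47 members were called lower there, with a largest called fall of -0.55 on the log2 scale (Psmd2). The simulated shares therefore do not give the sensitivity for the members at L2C.

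Whether the knockout effect itself differed between stages was tested with all 24 libraries. For Ttf1_KO, 17 of 47 members had an effect that was lower at morula than at L2C, where 8.65% of all genes did, and 0 had a higher one, where 12.5% did. They were 11 of the 17 subunits of the 19S particle, 5 core subunits and Psmd5. For Psmd2 the difference of effects was -0.69 (SE 0.12, adjusted p = 0.000135), with log2 fold changes of 0.13 at L2C and -0.55 at morula. Psmb5 and Psmb6 also differed between stages (-0.51 and -0.50, adjusted p = 0.00613 and 0.00645): their log2 fold changes were 0.43 and 0.43 at L2C, and -0.07 and -0.06 at morula. For Zfp622_KO, 7 members had a lower effect at morula, where 4.21% of all genes did, and 0 a higher one, where 6.45% did. Among genes with a mean of at least 50 CPM over all 24 libraries, 20.7% had a lower effect for Ttf1_KO and 17.7% a higher one. For Zfp622_KO these shares were 11.7% and 8.01%. The Zfp622_KO count of members rests on few libraries: it ran from 4 to 15 as single libraries were left out, with 15 without Zfp622_KO L2C library 2 and 4 without Zfp622_KO L2C library 3 or morula library 4.

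The morula calls also depended on 2 of the 4 wild-type libraries. Without the wild-type libraries that carry a second index number (morula 3 and 4), 14 members were lower in Ttf1_KO and 6 in Zfp622_KO, all among those called with every library. In that setting 10.6% and 6.03% of all genes tested were lower, down from 17.9% and 13.5%. The medians of all members moved little, from -0.22 to -0.21 and from -0.12 to -0.12. Of the 19S subunits, 9 of 17 and 5 of 17 remained called, down from 15 and 11. Their medians moved closer to no change, from -0.32 to -0.24 and from -0.25 to -0.21. Leaving out single libraries gave 22 to 25 and 13 to 18 lower members. Without all 3 second-index libraries, effects were lower at morula for 5 members in Ttf1_KO and 0 in Zfp622_KO, where 4.07% and 0.867% of all genes were.

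Markers of stages and of other cells also moved in the knockout morulae, in both directions. The counts below stand beside 17.9% of all genes tested lower and 21.3% higher in Ttf1_KO, and 13.5% and 15.6% in Zfp622_KO. Of 11 markers of the 2-cell embryo tested, 4 were higher in Ttf1_KO and 3 in Zfp622_KO, and all 12 summed to 30.9 to 72.3 CPM in wild type, 54.3 to 271 in Ttf1_KO and 102.6 to 126 in Zfp622_KO. Of 13 morula markers, 5 were lower and 2 higher in each knockout, but their sum was higher in the knockouts, without overlap: 7036 to 7532 CPM in wild type, 8064 to 9335 in Ttf1_KO and 8534 to 9977 in Zfp622_KO. Of 10 oocyte markers tested, 6 were higher and 1 lower in each knockout (median log2 fold changes 0.87 and 0.69), while the sum of all 12 was lower, at 304 to 334 CPM in Ttf1_KO and 320.5 to 404 in Zfp622_KO against 435 to 477 in wild type. Sperm and spermatid markers were higher for 3 of 4 tested in Ttf1_KO and 4 of 4 in Zfp622_KO (medians 1.84 and 1.62). Their 17 genes summed to 20.3 to 27 CPM in wild type, 27.3 to 35.3 in Ttf1_KO and 33.4 to 48 in Zfp622_KO, with Tnp1 and Smcp at 0 in all morula libraries. Of 6 cumulus and granulosa markers tested, 1 was higher in Ttf1_KO and 0 in Zfp622_KO, and the sums overlapped wild type. The part of embryo stage or of these cells in the lower 19S transcripts was not tested.

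Members lie on 16 chromosomes, and 6 of them lie on chromosome 2 beyond Ttf1, the targeted gene: Psmd5, Psmb7, Psmd14, Psmc3, Psmf1 and Psma7. In Ttf1_KO morulae 5 of these 6 were lower (median log2 fold change -0.39), against 17 of the other 41 members (median -0.20). All 951 genes tested in that stretch had a median of -0.16, with 29.4% lower, and genes elsewhere a median of 0.05. At L2C these 6 members had 0 calls and a median of 0.00, against 0.09 for the other 39 members tested, and all genes of the stretch had a median of -0.10, against 0.01 for genes elsewhere. Between Ttf1_KO and Zfp622_KO morulae the 6 had a median of -0.22 and the other members of -0.05, with -0.15 for all genes of the stretch and 0.01 for genes elsewhere. The part of the chromosome in these members' values was not tested.

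Genes that work with the proteasome but carry other symbols did not move as one in the morulae. Of 14 proteasome cofactors tested, 3 were lower and 3 higher in Ttf1_KO, where 17.9% and 21.3% of all genes were. The heat-shock inducible cofactor Zfand2a (log2 fold change 0.58, adjusted p = 0.000154) and the proteasome-bound deubiquitinase Usp14 (0.45, adjusted p = 0.000189) were higher there. In Zfp622_KO 3 cofactors were lower and 1 higher, where 13.5% and 15.6% of all genes were. Usp14 was lower there (-0.33, adjusted p = 0.0036), as was Uchl5, the other cap-bound deubiquitinase (-0.34, adjusted p = 0.00442). Of 16 shuttling receptors and parts of the Vcp segregase, 6 were lower and 1 higher in Ttf1_KO, and 5 lower and 1 higher in Zfp622_KO. Vcp, the ATPase that pulls ubiquitinated proteins out of complexes, was lower in both (-0.75, adjusted p = 3.53e-05 in Ttf1_KO, -0.59, adjusted p = 0.000455 in Zfp622_KO), and so was its cofactor Faf1 (-0.68, adjusted p = 0.000157 and -0.48, adjusted p = 0.00333).

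The COP9 signalosome has subunits built like those of the 19S lid. Of its 9 genes, 3 were lower and 3 higher in Ttf1_KO and 1 lower and 3 higher in Zfp622_KO morulae. Of all genes tested, 17.9% were lower and 21.3% higher in Ttf1_KO, and 13.5% and 15.6% in Zfp622_KO. Cops7b was higher in both (log2 fold change 0.63, adjusted p = 0.000205 and 0.49, adjusted p = 0.00231). In Ttf1_KO Cops2 was lower (-0.38, adjusted p = 0.000879) and in Zfp622_KO Cops6 was higher (0.34, adjusted p = 0.00297). Of 14 ubiquitin genes and enzymes that load ubiquitin, 5 were lower and 2 higher in Ttf1_KO and 3 lower and 2 higher in Zfp622_KO. The polyubiquitin gene Ubb was lower in Ttf1_KO (-0.45, adjusted p = 3.14e-05), and the conjugating enzyme Ube2n was lower in both (-0.59, adjusted p = 0.000101 and -0.34, adjusted p = 0.00822). The activating enzyme Uba1 was lower in Zfp622_KO (-0.61, adjusted p = 0.00538).

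Of 13 regulators of proteasome transcription tested in the knockout morulae, 1 was lower and 3 higher in Ttf1_KO, where 17.9% and 21.3% of all genes were, and 1 lower and 2 higher in Zfp622_KO, where 13.5% and 15.6% were. Nfyb, a subunit of the CCAAT-binding factor, was higher in both (log2 fold change 1.49, adjusted p = 1.42e-06 and 1.23, adjusted p = 1.26e-05), and Stat3 was lower in Ttf1_KO (-0.67, adjusted p = 0.00344). In Zfp622_KO the second smallest p in the list was that of Nfya, which was higher (0.51, adjusted p = 0.0057). At L2C no cofactor, regulator, shuttling or COP9 gene was called in either knockout by edgeR, and of the ubiquitin genes Rps27a was lower in Ttf1_KO (-0.36, adjusted p = 0.0311). From wild-type L2C to morula, 7 of 14 regulators were lower and 4 higher, 7 of 14 cofactors were higher and 5 lower, and 8 of 9 COP9 genes were higher and 1 lower. Of all genes tested between these stages, 46.1% were lower and 37.9% higher. Antigen presentation genes gave 2 calls in Ttf1_KO morulae, both lower: H2-D1 (-1.37, adjusted p = 4.58e-06) and H2-K1 (-0.94, adjusted p = 0.00502).

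Among the members themselves, libraries of a group varied little. The median coefficient of variation of members of at least 5 CPM was 8.45% in wild-type L2C, 10.4% in Ttf1_KO and 11.4% in Zfp622_KO at L2C, and 5.79%, 5.70% and 6.37% in the same order at morula. Wild-type Psme1 at L2C was the most variable there, at 32.3%. The only members within 10 kb of each other were Psmb5 and Psmb11 (3.41 kb apart on chromosome 14), Psme1 and Psme2, and Psmb9 and Psmb8 (9.96 kb apart on chromosome 17), and no such pair moved the same way with stage where both were tested. Psmb5 rose while Psmb11 fell, and Psme1 rose while Psme2 fell.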

How the data were processed

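Poly(A) RNA from pools of 10 embryos was sequenced in 24 libraries. The deposited unit is the raw count of read pairs assigned to a gene: per the submitters' processing notes reads were aligned with HISAT2 2.2.1 (builds GRCm38 and mm10 are named), and per the file headers featureCounts 2.0.1 assigned pairs to exons of Ensembl release 99, with no strand option and without reads that map to several places. Groups come from sample titles, since the genotype labels of the Zfp622 libraries number the gene upward. Symbols were matched for 55144 of 55471 identifiers.

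Genes kept by filterByExpr of edgeR 4.0.16 were scaled by TMM and tested with robust quasi-likelihood models in R 4.3.3, with Benjamini-Hochberg adjustment over all genes tested and a threshold of 0.05: 12 libraries for comparisons within a stage, all 24 for stage and for effects that differ between stages. The prior count was 2. TPM were computed from counts and exon lengths. DESeq2 1.42.0 was an alternative. The fits were tested on simulated data. No 2 libraries were identical. Same-numbered libraries of different groups deviated with correlations from -0.164 to 0.0859, so numbers were not taken to pair them.

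Members and lists were chosen with earlier results of these data known. Named in full were the up to 5 members with the largest called change per direction in each knockout and stage comparison, and members named for their role. For partner lists these were the up to 2 genes with the smallest p in each knockout comparison with a call; other members and genes were named for contrast after their values were seen.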

Additional observations from a re-analysis of the deposited data

Results flagged for a closer look

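Within groups of 4, single libraries stood apart from the other 3 by Dixon's test (gap over range above the 95% critical value) in 8 of 164 gene and group combinations of the members named in full. Chance flags about 1 in 20 groups, and 8 of 164 is close to that. They were Psmd4 at 196 CPM in wild-type L2C (highest, median 183), Psmd14 at 245 CPM in wild-type L2C (highest, median 205), Psme4 at 66.3 CPM in Zfp622_KO morula (highest, median 57.2), Psmd5 at 133 CPM in Zfp622_KO morula (lowest, median 139), Psmc3 at 30.1 CPM in Ttf1_KO L2C (lowest, median 32.9), Psmd1 at 89.7 CPM in Ttf1_KO L2C (highest, median 70.6), Psmc2 at 601 CPM in Ttf1_KO morula (lowest, median 651) and Psmb3 at 871 CPM in wild-type morula (highest, median 786). Wild-type L2C library 2 was the library that stood apart for both Psmd4 and Psmd14, and Ttf1_KO L2C library 2, Ttf1_KO L2C library 4, Ttf1_KO morula library 2, Zfp622_KO morula libraries 3 and 4 and wild-type morula library 3 for 1 member each.

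For Ttf1_KO the effect of the knockout differed between stages, by the interaction term in edgeR over all 24 libraries, for 17 members. The differences of log2 fold changes, morula minus L2C, were Psmd2 -0.69 (adjusted p = 0.000135), Psma5 -0.65 (adjusted p = 0.00114), Psmd1 -0.57 (adjusted p = 0.00224), Psmc3 -0.55 (adjusted p = 0.00249), Psmd3 -0.53 (adjusted p = 0.0099), Psmd5 -0.52 (adjusted p = 0.00307), Psmb5 -0.51 (adjusted p = 0.00613), Psmd14 -0.51 (adjusted p = 0.00371), Psmb6 -0.50 (adjusted p = 0.00645), Psmd13 -0.47 (adjusted p = 0.0195), Psma4 -0.42 (adjusted p = 0.0103), Psmb4 -0.39 (adjusted p = 0.0414), Psmd4 -0.39 (adjusted p = 0.0122), Psmd7 -0.38 (adjusted p = 0.0118), Psmd12 -0.37 (adjusted p = 0.00976), Psmc1 -0.35 (adjusted p = 0.0223) and Psmc5 -0.35 (adjusted p = 0.0301). For Zfp622_KO the same test gave 7 members: Psma5 -0.62 (adjusted p = 0.00405), Psmd2 -0.55 (adjusted p = 0.00301), Psmd1 -0.46 (adjusted p = 0.02), Psma4 -0.45 (adjusted p = 0.013), Psmd14 -0.45 (adjusted p = 0.0182), Psmc3 -0.41 (adjusted p = 0.0348) and Psmd7 -0.35 (adjusted p = 0.0363). All 24 values are negative. Both sets use the same wild-type libraries, and Psma5, Psmd2, Psmd1, Psma4, Psmd14, Psmc3 and Psmd7 appear in both. The overlap of such sets over all genes was not counted.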

How the results depend on the processing

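Counts of called members are given as lower or higher. Ttf1_KO at L2C, higher: 1 with every library, 2 with DESeq2, with total counts only, with only the groups compared and with all 24 libraries, 3 with no filter on low counts, and 0 without the second-index libraries or when calls also needed a log2 change of 0.5 or more. Ttf1_KO morula: 14 lower without the second-index libraries, 3 lower and 0 higher at a log2 fold change of at least 0.5, and 0 higher with all 24 libraries. Zfp622_KO morula: 6 lower without the second-index libraries, 9 with all 24 libraries, 0 at a fold of at least 0.5, and 0 higher among members of at least 50 CPM, an alternative chosen after seeing the data. Ttf1_KO against Zfp622_KO at morula: 2 lower with DESeq2 and with no filter. Effect by stage, Ttf1_KO: 5 lower without the second-index libraries and 8 at the fold limit; Zfp622_KO: 12 lower with DESeq2, 0 without the second-index libraries, 2 at the fold limit, and 1 higher with no filter. The cause of these differences was not tested. The fits without the second-index libraries also had fewer samples, and this was not separated from other traits of those libraries. A fold limit can only lower the counts.

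Leaving out each library in turn gave 0 to 1 higher (Ttf1_KO L2C), 22 to 25 lower and 1 to 2 higher (Ttf1_KO morula), 13 to 18 lower and 1 to 1 higher (Zfp622_KO morula), 0 to 2 lower and 0 higher (between knockouts, morula), 4 to 5 lower and 41 to 41 higher (stage), and 13 to 18 and 4 to 15 lower with 0 higher (effect by stage, Ttf1_KO and Zfp622_KO); all other counts stayed 0. With replicate number as a replicate block, the counts were 24 lower and 1 higher (Ttf1_KO morula), 13 and 1 (Zfp622_KO morula), 5 and 41 (stage), 17 and 7 lower (effect by stage), 1 higher (Ttf1_KO L2C) and 0 elsewhere. For members named in full, 4541 of the single values kept their side of the threshold, 57 lost it and 56 gained it, and none that passed changed sign. Depth limits Psmb8, Psmb9, Psma8 and Psmb11, which lie under 6 CPM in all libraries.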
